A study of Mus musculus with 2 samples.

Results

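Site-free windows are stretches of 500 kb on chromosomes 1 to 19 in which the authors' list of Ptf1a binding sites has no position although the input library covers them with at least 2000 reads. Window starts were fixed at multiples of 500 kb. There were 947 such windows, covering 473.5 Mb. They made up 20.1% of the 4704 windows with at least 2000 input reads and 19.1% of all 4955 windows. They were set against 1100 windows with 10 or more listed sites, which held 19474 of the 30327 sites listed on these chromosomes. The members were chosen by the absence of listed sites and by input read counts, and the list was made from the same ChIP library. Site numbers, ChIP reads and ratios of ChIP to input in these windows are therefore descriptions and were not tested.

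The transcription factor Ptf1a, of the basic helix-loop-helix family, joins an E protein and Rbpj or Rbpjl in the PTF1 complex, which switches on digestive enzyme genes in acinar cells and acts earlier in pancreas formation. Sites of such factors are spread unevenly over mammalian genomes, which alternate between gene-rich stretches and long gene-poor ones often called gene deserts. Reads from unselected input chromatin also vary along the genome, with copy number, with how well short reads can be placed, and with base composition. Gene content and base composition of the windows were not analysed here.

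The study compared 1 Ptf1a ChIP library with 1 input library, each from 266.6 cells, to set bound sites beside genes expressed in embryonic pancreatic buds. This mouse pancreatic line came from an acinar tumour driven by a viral oncogene under an elastase promoter, so it models acinar cells only in part. Both groups were cells of the strain background C57BL/6 X SJL at passage 26 and 90% confluence, fixed with 1% formaldehyde for 10 min. Chromatin fragments were of 100 to 500 bp in both. The ChIP group was precipitated with a Ptf1a antibody of the Beta Cell Biology Consortium, and 2 precipitations were pooled into its library, whereas the input group had no antibody. A gel range of 100 to 400 bp is given for the ChIP library and none for the input, so the libraries may also differ in fragment size. ChIP reads measure no expression, so the acinar identity of the cells could not be checked against marker genes.

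The ChIP library held 28502488 placed reads and the input library 27959618. There was no replicate. The 95% intervals below cover counting error only, and they are too narrow because amplified reads are not independent molecules. They say nothing about how a second culture would differ. A pair of site-free windows stood apart from the others. The window from 98500001 to 99000000 on chromosome 2 held 349586 input reads and that from 3000001 to 3500000 on chromosome 9 held 40867, against at most 10432 in the other 945. Reads that repeat the position and strand of another read (repeated reads) made up 98.8% and 85.0% of their input reads. Both are included unless stated otherwise, and together they supplied 9.94% of all input reads in site-free windows.

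Site-free windows lay next to each other more often than windows at large. Among neighbours of site-free windows that also had at least 2000 input reads, 48.9% were site-free, against 19.9% among neighbours of all such windows and 3.57% among neighbours of windows with 10 or more sites. The median neighbour of a site-free window held 1 listed site, and that of a window with 10 or more sites held 10. The 947 windows formed 495 runs of consecutive windows. Single windows made up 292 runs, and 95 runs had 2 windows. The 32 runs of 5 or more windows held 209 windows, or 22.1% of the members.

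**Figure D1:**
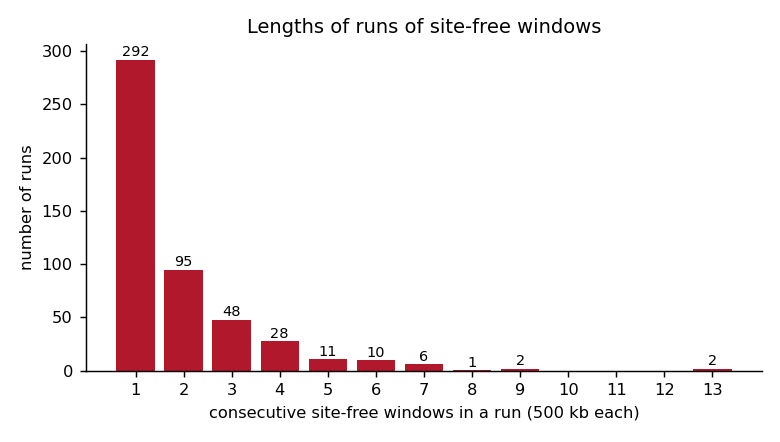
Number of runs (vertical axis) by the number of consecutive site-free 500 kb windows in a run (horizontal axis). Bars carry their counts: 292 runs were single windows, 10 had 6 windows and 2 had 13.

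The longest runs had 13 windows (6.5 Mb) and lay on chromosomes 15 and 8. On chromosome 15 the run went from 13500001 to 20000000. Its windows held between 3612 and 4525 input reads, and the listed sites to its left and right, at 13066023 (height 33) and 20495809 (height 65), were 7430 kb apart. The height is the authors' whole-number signal for a site, which ran from 20 to 396. On chromosome 8 the run went from 98500001 to 105000000, with 2436 to 3483 input reads per window. It lay in a gap of 6940 kb between sites of heights 26 and 34. The 2 runs thus had the same number of windows but different depth, as did the chromosomes, whose median windows held 7338 (chromosome 15) and 4727 (chromosome 8) input reads. Relative to the median window of their own chromosome, their median depths were alike, at 0.557 and 0.551.

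The next runs lay on chromosomes 9 and 5. On chromosome 9, 9 windows from 3000001 to 7500000 preceded the first listed site of the chromosome, at 7785434. They included the deep window named above, and without it the other 8 held at most 2945 input reads each. On chromosome 5, 9 windows from 55000001 to 59500000 and 8 windows from 60000001 to 64000000 were separated by 1 window that held the single listed site at 59960511, of height 29. With sites under height 30 left out of account, the 2 became a run of 18 windows (9 Mb) from 55000001 to 64000000, the longest under that setting. A longer gap was hidden by the input minimum. On chromosome 7, 22 windows from 39000001 to 50000000 had no listed site, but 14 of them held under 2000 input reads and only 8 were members.

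Long runs were shallower than single windows in the input library. The median input was 3862 reads in single windows, 3489 in runs of 2, 3278 in runs of 3 to 4 and 3236 in runs of 5 or more. Relative to the chromosome's median window these were 0.730, 0.647, 0.611 and 0.567. The share of the 500 kb with any read in either library was counted in steps of 1 kb. It was 95.8% at the median window in the first 3 classes and 95.4% in the last. A single read fills a step, so this share cannot show differences within steps.

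Chromosomes differed in the share of their windows that were site-free. It was highest on chromosome 8, where 82 of 247 windows were site-free (33.2%, Wilson 95% interval 27.6 to 39.3%), followed by chromosome 17 with 53 of 183 (29.0%, 22.9 to 35.9%) and chromosome 15 with 55 of 201 (27.4%, 21.7 to 33.9%). It was lowest on chromosome 11, where 29 of 238 were site-free (12.2%, 8.62 to 17.0%). Chromosomes 4 and 10 were close to it, with 36 of 294 (12.2%) and 32 of 254 (12.6%), and their intervals overlapped. Neighbouring windows resemble each other, so these intervals are too narrow. The ranking depended on the input minimum. With at least 3000 input reads the share on chromosome 8 fell to 21.8% (16.6 to 28.1%), below chromosomes 15 (27.4%) and 17 (24.7%), whereas chromosome 11 had 11.9% and the lowest share was 6.47% on chromosome 12 (3.65 to 11.2%).

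Chromosome 15 was rich in both kinds of window. It had 55 site-free windows and 74 with 10 or more sites, which left 72 of its 201 windows in between. On chromosome 8 these numbers were 82 and 43 of 247, and on chromosome 11 they were 29 and 111 of 238. Across the 19 chromosomes the site-free share had a Spearman correlation of -0.13 with the median input reads per window, which is given as a description and shares its reads with the rule.

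**Figure D2:**
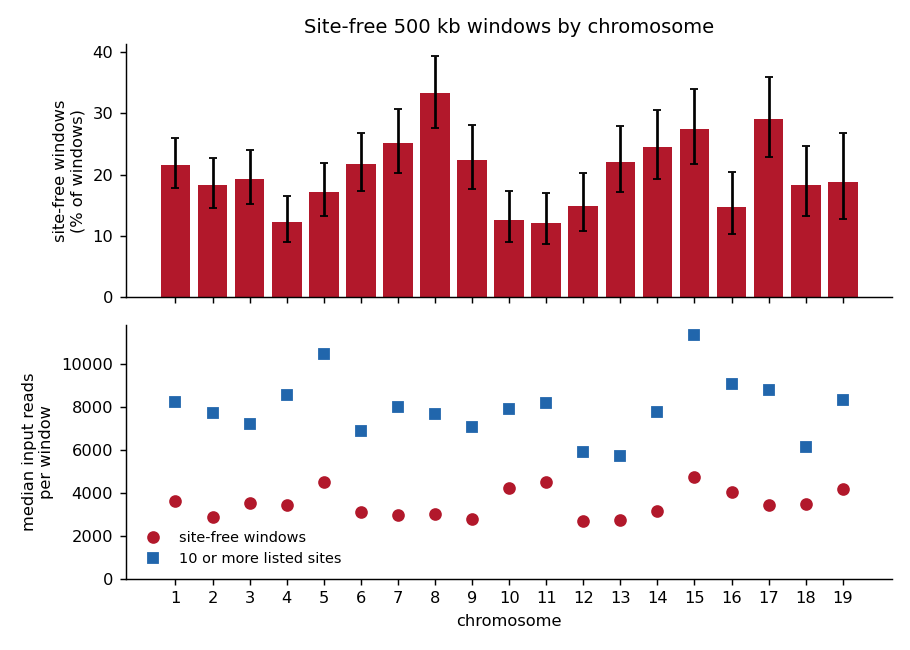
Upper panel, share of windows with at least 2000 input reads that were site-free, by chromosome, with Wilson 95% intervals as error bars. Lower panel, median input reads per window for site-free windows (circles) and for windows with 10 or more listed sites (squares), which lay above the circles on all 19 chromosomes.

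Along the chromosomes, site-free windows were commoner toward the start, the end that carries the centromere in the mouse. With each chromosome's covered stretch cut into 4 equal parts, 24.7% of windows in the first part were site-free, 21.4% in the second, 20.5% in the third and 14.0% in the last. Windows with 10 or more sites went the other way, from 18.6% in the first part to 33.0% in the last. The median input moved with them, from 4922 reads per window in the first part to 6184 in the last, and its part in the result was not tested.

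Within chromosomes, site-free windows were shallow in the input library. The rule used input reads only as a minimum. The median site-free window held 3472 input reads (quartiles 2822.5 and 4357), against 4564 in windows with 1 to 4 sites, 6058 with 5 to 9 sites and 8023 with 10 or more (quartiles 6686 and 9466). The last median was 2.31 times that of site-free windows. The groups hardly overlapped, since only 6 of 947 site-free windows lay above the median of windows with 10 or more sites and 4 of 1100 such windows lay below the site-free median.

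The difference in depth was found on every autosome. The median of windows with 10 or more sites was between 1.77 times (chromosome 18) and 2.71 times (chromosome 2) that of site-free windows. Relative to the median window of their chromosome, site-free windows had a median depth of 0.643 and windows with 10 or more sites of 1.43. Of the site-free windows, 865 (91.3%) lay under that chromosome median, against 88 (8.0%) of windows with 10 or more sites. Counted per 1 kb step with any read, input depth was 7.33 reads in the median site-free window and 16.4 in the median window with 10 or more sites, a difference of like size.

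Sorting all 4704 windows by input reads gave the same picture. Among the 10% with the fewest reads (2010 to 3077) 66.5% were site-free and 0.425% had 10 or more sites. In the fifth class (4772 to 5334 reads) these shares were 13.9% and 8.53%. Among the 10% with the most reads (8875 or more) 0.637% were site-free and 82.2% had 10 or more sites. Over all windows the number of listed sites had a Spearman correlation of 0.74 with input reads, a description over windows that share 2 libraries and whose neighbours are alike. How far depth itself sets whether a site is listed was not tested.

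**Figure D3:**
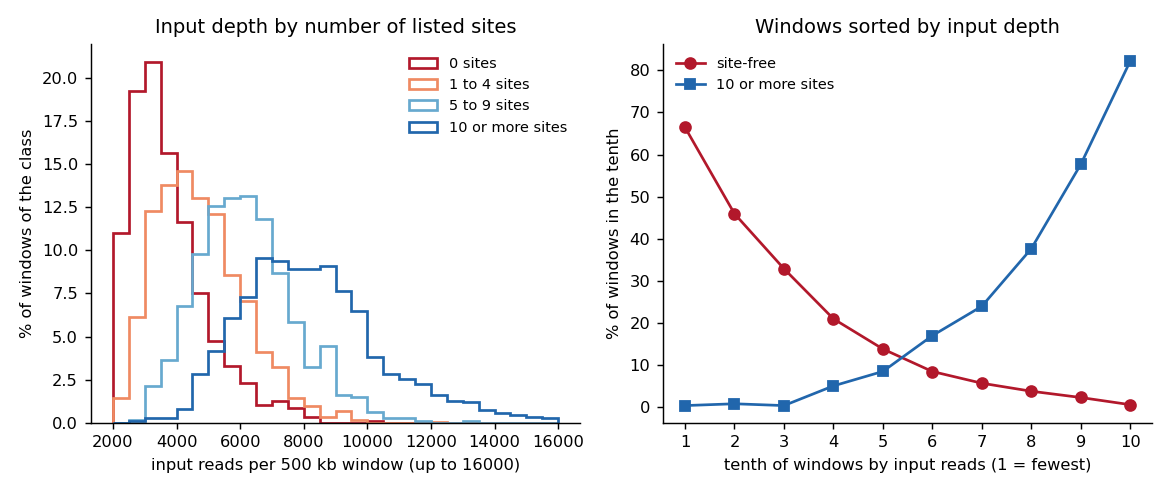
Left, input reads per 500 kb window, drawn up to 16000 reads, as the percentage of windows in each class of listed sites. Right, share of site-free windows (circles) and of windows with 10 or more sites (squares) in 10 classes of equal number sorted by input reads, which cross between the fifth and the sixth class.

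A small group of members was deep. Leaving out the pair with repeated reads, 80 windows were at or above the median window of their chromosome. The deepest were the windows from 38000001 to 38500000 (10432 input reads) and from 117000001 to 117500000 (8442) on chromosome 5 and the window from 75500001 to 76000000 on chromosome 10 (8265). In these 3 windows repeated reads were 1.85% to 2.30% of input reads. Chromosome 8 supplied 12 site-free windows at or above its median, the most of any chromosome.

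The ratio of ChIP to input reads was then compared. It was divided by 0.896, the number of ChIP reads per input read more than 1 kb from any listed position on chromosomes 1 to 19, so that 1 stands for the mean of reads outside sites. Pooled over site-free windows the ratio was 1.04 (exact 95% interval 1.04 to 1.04), and without the pair of deep windows it was 1.02 (1.02 to 1.02). The median window had 1.03, with quartiles of 1.00 and 1.06. In windows with 10 or more sites the ratio over all reads was 1.27, and with reads within 1 kb of listed positions left out, called the residual ratio here, it was 0.987 (0.986 to 0.988). Outside listed sites, these windows thus stood slightly below the site-free windows, at 0.947 times their ratio, or 0.967 times without the deep pair.

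The residual ratio fell with the number of sites. It was 1.00 in windows with 1 to 4 sites and 0.990 in windows with 5 to 9 sites. The median site-free window was above the median residual ratio of windows with 10 or more sites on 18 of the 19 chromosomes. Single windows overlapped widely. The exact interval lay wholly above 1 in 307 site-free windows (32.4%) and wholly below 1 in 72 (7.60%). Over all 4704 windows these shares were 24.0% and 21.7%, and in windows with 10 or more sites they were 21.5% and 32.9%. Windows varied more than counting alone would give, with a standard deviation of 0.07 in log2 ratio among site-free windows without the deep pair, against 0.04 from counting error.

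This order turned round in each band of input depth from 4000 to 7999 reads, and above 8000 reads only without the deep pair. In both groups the ratio fell as input reads rose, with a Spearman correlation across windows of -0.46 in site-free windows without the deep pair and -0.56 in windows with 10 or more sites. Input reads are the divisor of the ratio, so a negative relation is in part built in. The bands are cut on the same input reads. From 4000 to 7999 reads they set deeper site-free windows beside shallower windows with 10 or more sites. Part of the turned order may therefore be built in too, and how much was not tested. Among windows with 4000 to 4999 input reads, the 181 site-free windows had a pooled ratio of 1.01 (1.01 to 1.02) and the 40 windows with 10 or more sites a residual ratio of 1.06 (1.05 to 1.07). From 5000 to 5999 reads these were 0.993 (0.989 to 0.998, 76 windows) and 1.05 (1.04 to 1.05, 113 windows). From 6000 to 6999 reads they were 0.953 in 32 windows and 1.02 in 185, and from 7000 to 7999 reads 0.971 in 20 windows and 0.999 in 201. The open band of 8000 reads or more held 554 of the 1100 windows with 10 or more sites, with a residual ratio of 0.966, and only 6 site-free windows. Pooled with the deep pair, which supplied 91.7% of their input reads, these 6 had a ratio of 1.21 (1.20 to 1.21), so the order did not turn there. Without the pair, the other 4 had 0.925 (0.911 to 0.940).

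**Figure D4:**
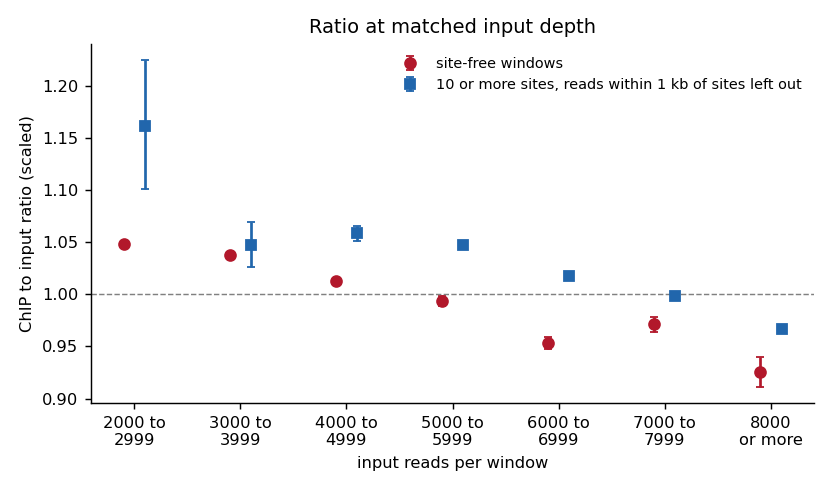
Scaled ChIP to input ratio, pooled over windows, in bands of input reads per window, for site-free windows (circles) and for windows with 10 or more sites with reads within 1 kb of listed positions left out (squares). Bands are cut on input reads, the divisor of the ratio. Error bars are exact 95% counting intervals, the squares lie above the circles in each band drawn, the first and second squares rest on 1 and 6 windows, and the last circle leaves out the deep pair, with which it would stand at 1.21, above its square.

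Over the whole range of 4000 to 7999 input reads, the residual ratio of windows with 10 or more sites was 1.02 times the ratio of site-free windows (1.02 to 1.03). Among windows with 0.9 to 1.1 times the median input of their chromosome it was 1.06 times (1.05 to 1.07). Both settings pick windows by the divisor of the ratio, so part of these differences may be built in. With reads within 5 kb of listed positions left out, the difference at 4000 to 7999 reads shrank to 1.01 times (1.00 to 1.01). With no replicate, the size of these differences relative to the variation between cultures is unknown.

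The 5 site-free windows with the lowest ratios were mostly deep ones. On chromosome 8 the window from 91000001 to 91500000 had a ratio of 0.866 from 4680 ChIP and 6035 input reads, and the window from 90000001 to 90500000 had 0.882 from 5123 and 6489 (exact 95% interval 0.850 to 0.915). On chromosome 14 the window from 34500001 to 35000000 had a ratio of 0.890, and on chromosome 10 the window from 75500001 to 76000000 had 0.895. These 4 had 1.28 to 1.58 times the median input of their chromosomes. The window from 74500001 to 75000000 on chromosome 13, with a ratio of 0.893, was shallower at 0.752 times and had 9.09% repeated input reads.

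The windows with the highest ratios had many repeated reads, strong unlisted ChIP signal in a narrow place, or both. The windows on chromosomes 9 and 2 with many repeated reads had ratios of 1.24 and 1.23, and the window from 3000001 to 3500000 on chromosome 12 had 1.20 with 54.9% repeated input reads. The window on chromosome 12 also held an unlisted 200 bp bin of 27 distinct ChIP reads, with at least 4 times the input. In the windows on chromosomes 9 and 2 the highest such bin held 6 and 7. The other 2 had few repeated input reads and strong unlisted ChIP signal in a narrow place. The window from 68000001 to 68500000 on chromosome 16 had a ratio of 1.20 and the window from 33500001 to 34000000 on chromosome 19 had 1.16, with at most 1.25% repeated input reads. Counting each position and strand once, and scaled by distinct reads outside sites, the ratios were 1.098, 1.14 and 1.02 in the windows on chromosomes 9, 2 and 12. In those on chromosomes 16 and 19 they were 1.18 and 1.14, so the windows on chromosomes 2 and 19 were then alike.

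Such signal was searched for in bins of 200 bp more than 1 kb from any listed position. A bin was called strong with at least 20 ChIP reads of distinct position and strand, the lowest height of the list, and a ratio of at least 4 to its distinct input reads, with an input count of 0 taken as 1. Over chromosomes 1 to 19, 0.0472% of 9947563 bins with any read were strong. In site-free windows 180 of 1873788 bins were strong (0.00961%), against 2220 of 2376075 (0.0934%) in windows with 10 or more sites. At least 1 strong bin was present in 133 of 947 site-free windows (14.0%, Wilson 95% interval 12.0 to 16.4%), in 49.7% of all windows and in 897 of 1100 windows with 10 or more sites (81.5%, 79.1 to 83.7%). The rule used this contrast, so these shares are descriptions.

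The strongest unlisted bin with at least 4 times the input held 10 distinct ChIP reads in the median site-free window, 18 in windows with 1 to 4 sites, 22 with 5 to 9 sites and 28.5 with 10 or more. It held under 10 in 452 site-free windows and 15 to 19 in 133. Within bands of input depth the shares of windows with a strong bin also differed, which is again the contrast that the rule used. From 4000 to 4999 input reads, 25 of 181 site-free windows (13.8%) and 21 of 40 windows with 10 or more sites (52.5%) held one. From 5000 to 5999 reads these were 15 of 76 (19.7%) and 91 of 113 (80.5%). From 6000 to 6999 reads they were 5 of 32 (15.6%) and 147 of 185 (79.5%). From 7000 to 7999 reads they were 7 of 20 (35.0%) and 164 of 201 (81.6%). The part of depth in these shares was not tested.

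**Figure D5:**
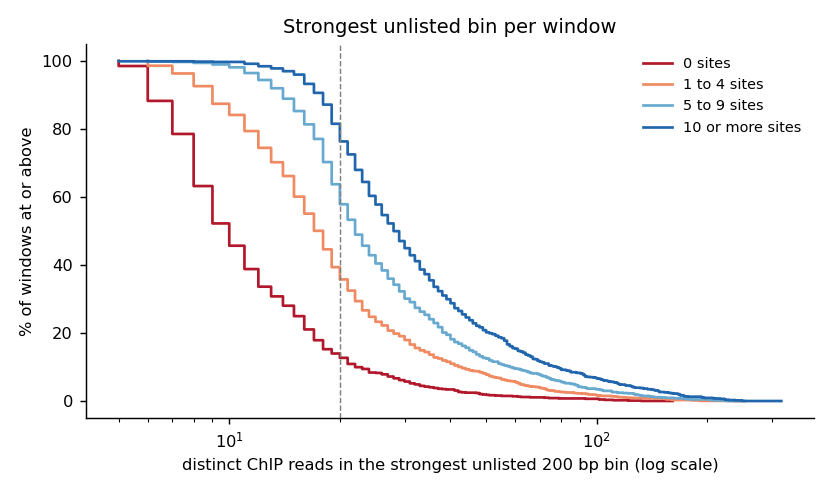
Share of windows (vertical axis) whose strongest unlisted 200 bp bin with at least 4 times the input reached a given number of distinct ChIP reads (horizontal axis, log scale), by class of listed sites. The dashed line marks 20 reads, reached in 14.0% of site-free windows and 81.5% of windows with 10 or more sites.

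Where strong bins occurred in site-free windows they were few, and somewhat weaker than in windows with 10 or more sites. Of the 133 windows, 97 had 1 strong bin, 27 had 2 and 9 had 3 or more. Of the 897 windows with 10 or more sites that held a strong bin, 353 had 3 or more. The strongest bin held 20 to 29 distinct reads in 74 of the 133 windows (55.6%), against 42.3% of these 897. Its median was 28 reads in the 133 and 33 in the 897. The strongest bin held 50 or more in 19 of the 133, against 230 of these 897. Of all windows in each group, with or without a strong bin, these were 2.01% and 20.9%. It held 100 or more in 7 of the 133 and 76 of the 897. The nearest listed site was 10.4 kb to 2949 kb away, with a median of 372 kb, and in 3 of the 133 windows it was within 50 kb. For strong bins in windows with 10 or more sites the median distance was 9.46 kb, so those lay much closer to listed sites. The number of sites in a window bears on such distances. Window centres had medians of 494 kb (site-free) and 14.2 kb (10 or more sites).

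Strong bins were rarer in long runs. They were present in 63 of 292 single windows (21.6%), in 31 of 190 windows in runs of 2 (16.3%), in 24 of 256 in runs of 3 to 4 (9.38%) and in 15 of 209 in runs of 5 or more (7.18%). Median input depth fell in the same order, and its part in the result was not tested. Chromosomes 15 and 17, among those with the highest site-free shares, had a strong bin in only 1 of 55 and 1 of 53 site-free windows, and chromosome 8 in 4 of 82. On chromosomes 10 and 18 there were 9 of 32 each, on chromosome 11 there were 9 of 29 and on chromosome 19 there were 6 of 22. Over all site-free windows it was 133 of 947 (14.0%).

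The 10 strongest of these bins, 1 per window, lay on chromosomes 2, 6, 7, 11, 16, 18 and 19. The highest, from 68402201 to 68402400 on chromosome 16, held 161 distinct ChIP reads against 8 in the input (ratio 22.5, exact 95% interval 11.1 to 52.9). It lay 433 kb from the nearest listed site, in the window with the ratio of 1.20 named above. Its distinct reads came from both strands, 68 from the plus and 93 from the minus strand, with at most 6 reads at a single position and strand.

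Chromosome 19 supplied 2 of the 10. The bin from 20656401 to 20656600 held 132 distinct ChIP and 3 input reads (ratio 49.1, 16.4 to 241), and the bin from 33925401 to 33925600 held 111 and 1 (ratio 124, 21.8 to 4939). They were 525 kb and 218 kb from a listed site. The second lay in a window of only 2491 input reads, where the mean over 200 bp was 0.96 distinct ChIP reads, against 111 in the bin.

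Further bins of over 100 distinct reads lay on chromosomes 7, 11, 6 and 2. On chromosome 7 the bin from 28994001 to 28994200 held 122 distinct ChIP and 8 input reads, and on chromosome 11 the bin from 27142001 to 27142200 held 105 and 8. On chromosome 6 the bin from 15563401 to 15563600 held 102 and 4, and on chromosome 2 the bin from 90790801 to 90791000 held 101 and 5. Their ratios ran from 14.7 to 28.5.

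The last 3 were on chromosomes 18 and 6. The bin from 86823401 to 86823600 on chromosome 18 held 93 distinct ChIP reads and 1 input read and lay 1444 kb from any listed site, the farthest of the 10. The bin from 63076201 to 63076400 on chromosome 6 held 79 ChIP reads and no input read, which is at least 29.4-fold higher with the input of the bin put at a floor of 3 reads. The bin from 8449201 to 8449400 on chromosome 18 held 74 and none (at least 27.5-fold higher). In the 10 bins the plus strand supplied between 35 and 68 distinct reads and the minus strand between 39 and 93, and no position and strand held more than 6 reads.

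High read numbers alone did not mark ChIP signal in site-free windows. Another 111 bins with 20 or more distinct ChIP reads had under 4 times the input. They lay in 21 windows, and 85 of them lay in the pair of deep windows. Those on chromosomes 2 and 9 had bins of up to 256 and 176 distinct ChIP reads, but among bins with at least 4 times the input their highest held 7 and 6.

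The site-free windows with the fewest input reads were those from 87500001 to 88000000 on chromosome 2 (2015 reads), 24000001 to 24500000 on chromosome 7 (2016) and 12000001 to 12500000 on chromosome 7 (2030). The 13 members with under 2100 input reads had a median ratio of 1.05, and the 6 windows without a site and with 1900 to 1999 input reads had 1.03. The nearest of the latter, from 123000001 to 123500000 on chromosome 6, had 1996. In all, 238 windows without a listed site were left out for depth. Of these, 137 had no read in either library and 37 had 1000 or more input reads.

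On the other side of the rule, 526 windows had a single listed site. They had a median input of 4067 reads and a median residual ratio of 1.02, against 3472 and 1.03 in site-free windows. A strong unlisted bin was present in 28.9% of them. The median height of these single sites was 38, against 36 for all sites on these chromosomes and 36 in windows with 10 or more sites. Heights of 20 to 29 made up 34.8% of them, against 37.6% in windows with 10 or more sites, and 62 (11.8%) had heights of 100 or more, against 14.0%.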

How the data were processed

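Deposited for each library were counts of placed reads, each read of 37 bp on a line of its own and without normalization, and, for the ChIP library, the authors' list of sites with a signal value (the height) for each span of 100 bp, per the file headers. Coordinates are those of mm9, the build named by the submitters' processing notes. For the aligner and the peak caller no name is given in the sources used here. The members, lists and classes were chosen with earlier results of these data known.

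Reads were assigned to windows by their leftmost base. For bins and for distances to sites, the 5′ end was moved 73 bp downstream, since the starts of the strands' reads on chromosome 19 lay together best at a shift of 145 bp (ChIP) and 155 bp (input). Ratios were divided by 0.896, and library totals of 28502488 and 27959618 reads were an alternative scale. Intervals are exact (Clopper-Pearson) for ratios of ChIP to input and Wilson for shares, at 95%. The range beside a quotient of such ratios divides opposite ends of their intervals and is not an exact 95% interval. No test was run, since each group had 1 library. Named windows and bins follow a rule of rank (the 5 longest runs, the 5 highest and 5 lowest ratios, the 10 strongest bins, and windows next to a threshold), and the deepest windows were chosen after their values were seen. The counting of windows, ratios and bins was tested on simulated data. Gene and base content and window sequences were not analysed here, because the gene tables used are of another build. Python 3.11.15, numpy 2.4.6, scipy 1.17.1 and pandas 2.3.3 were used.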

Additional observations from a re-analysis of the deposited data

How the results depend on the processing

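The alternatives on gene content were not run. No paired analysis was possible because each group had 1 library. The number of site-free windows was 3056 with windows of 250 kb and 236 with windows of 1 Mb, and stayed within 1.5 times of 947 under the other settings. The depth ratio of 2.31 became 2.04 with at least 3000 input reads. The pooled ratio of site-free windows was 1.04 with at least 3000 input reads and without chromosome 1, 1.03 with 1 read per position and strand and as a median, and 1.02 without the deep pair. It turned below 1 at 4000 to 7999 input reads (0.996) and on the scale of library totals (0.915), which counts reads at sites. The residual ratio of windows with 10 or more sites was 0.985 with windows starting 250 kb later, 0.992 as a median, 0.992 and 0.978 with reads within 500 bp and 5 kb left out, and 0.867 with library totals. It turned above 1 at 4000 to 7999 input reads (1.02). The quotient of both was 0.959 with 1 read per position and strand, 0.962 for medians, 0.956 and 0.935 with 500 bp and 5 kb, and 0.967 without the deep pair. It turned above 1 at matched depth, at 1.02 and, with 5 kb left out, 1.01 for 4000 to 7999 reads, and at 1.06 near the chromosome's median. Site-free windows with a strong bin numbered 83 with 5′ ends not moved, 59 at 30 distinct reads and 52 of 309 at 4000 to 7999 input reads. For windows with 10 or more sites the last 2 settings gave 518 and 423 of 539. Settings on matched depth and on the deep pair were chosen after seeing the data, and the cause of these shifts was not tested. Those on matched depth also pick windows by the divisor of the ratio.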
